A study of Mus musculus with 3 samples.

Results

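Gap junction and pannexin channel genes were examined in adult lung ECs, in 3 bulk RNA-seq libraries called S38, S44 and S52. The set holds 8 genes chosen by symbol, the connexin genes *Gja1*, *Gja4*, *Gja5*, *Gjb1*, *Gjb2* and *Gjc1* and the pannexin genes *Panx1* and *Panx2*, and all 8 had a row among the 24346 genes of the deposited table. The cells came from lungs of wild type male C57BL/6J mice aged 6 to 8 weeks, injected with an antibody to VE-cadherin that marked the vessels before the organs were taken. They were freshly isolated by collagenase and dispase digestion and sorted by FACS on CD31, with antibodies to CD45 and podoplanin to leave out leukocytes and lymphatic ECs. All 3 libraries belong to this 1 condition, so nothing could be compared between organs, ages or treatments, and differences between libraries describe the spread of replicates. Levels are given in FPKM, that is, fragments per kilobase of transcript per library size, so levels of different genes can be set side by side.

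Connexins are membrane proteins that assemble into a hexameric hemichannel. Hemichannels of neighbouring cells dock into gap junctions, which pass ions and small signalling molecules such as calcium and cyclic nucleotides from cell to cell. In blood vessels they couple ECs to each other along the vessel wall and, at myoendothelial contacts, to smooth muscle, so that changes in membrane potential travel along arterioles and, in lung capillaries, calcium waves spread upstream. Pannexins have a similar membrane topology, do not usually form gap junctions, and release ATP from the cell as single-membrane channels.

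On GRCm38 (mm10), *Gja4* (Cx37) lies on the minus strand of chromosome 4 from 127311421 to 127314039, *Gja5* (Cx40) at 96904693 to 97077416 of chromosome 3 (plus strand), and *Gja1* (Cx43) at 56377330 to 56402513 of chromosome 10 (plus strand). *Gjc1* (Cx45) lies on the minus strand of chromosome 11 from 102799579 to 102819700. *Gjb2* (Cx26) was annotated on the minus strand of chromosome 14 from 57098600 to 57104702 and *Gjb1* (Cx32) on the X chromosome, plus strand, from 101376378 to 101385629. *Panx1* spans 15002128 to 15045478 on the minus strand of chromosome 9, and *Panx2* 89059734 to 89073567 on the plus strand of chromosome 15. In *Gja1*, *Gja4*, *Gjb1*, *Gjb2* and *Gjc1* the whole coding sequence lies in 1 exon in every basic transcript, with 382, 333, 283, 226 and 396 codons, respectively. *Gja5* has a transcript of 358 codons in 1 coding exon and another of 368 codons in 2. *Panx1* has 5 coding exons and 426 codons. *Panx2* has 3 to 4 coding exons and up to 677 codons. No window of read length (51 bases) in the transcripts of *Gja1*, *Gja4*, *Gjb1*, *Gjb2*, *Panx1* or *Panx2* occurs in a transcript of another gene, and for *Gjc1* 1 of 2670 does. Exact matches to annotated transcripts thus tell these genes apart. Matches with mismatches or outside annotated transcripts were not examined. *Gja5* is the exception, with 873 of 5636 windows shared with *Gpr89* or *Zfp697*. All of these are in its longer transcript, and none is in the transcript that starts next to the promoter shown here.

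The 250 bases before the annotated start are shown for genes of the set at 1 FPKM or above. The starts are those of the annotation, and the starts used in these cells were not measured. Stretches are given for the genes that have an entry in the RefSeq promoter table (GRCm38.p6). Each is written 5′ to 3′ on the strand of the gene. Capitals mark matches, on either strand, to the TATA box TATAAA, the GC box GGGCGG, the CCAAT box CCAAT, the AP-1 motif TGANTCA, the ETS motif CCGGAA, the SOX motif AACAAT or the E-box CACGTG.
*Gja4*, chr4:127314040-127314289, minus strand: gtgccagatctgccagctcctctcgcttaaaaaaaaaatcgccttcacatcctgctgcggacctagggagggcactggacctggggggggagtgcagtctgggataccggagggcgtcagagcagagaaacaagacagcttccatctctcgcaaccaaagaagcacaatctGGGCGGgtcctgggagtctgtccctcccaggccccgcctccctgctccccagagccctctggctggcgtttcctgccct
*Gja5*, chr3:97032152-97032401, plus strand: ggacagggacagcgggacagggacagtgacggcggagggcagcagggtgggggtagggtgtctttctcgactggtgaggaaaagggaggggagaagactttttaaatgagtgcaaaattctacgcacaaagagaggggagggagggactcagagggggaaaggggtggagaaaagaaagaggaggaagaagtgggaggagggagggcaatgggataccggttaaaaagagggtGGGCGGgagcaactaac
*Gja1*, chr10:56377050-56377299, plus strand: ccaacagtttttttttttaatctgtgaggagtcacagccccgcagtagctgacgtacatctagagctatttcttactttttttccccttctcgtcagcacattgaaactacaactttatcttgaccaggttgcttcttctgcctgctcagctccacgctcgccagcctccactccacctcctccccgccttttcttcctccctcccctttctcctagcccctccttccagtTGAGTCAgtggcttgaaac
*Panx1*, chr9:15045479-15045728, minus strand: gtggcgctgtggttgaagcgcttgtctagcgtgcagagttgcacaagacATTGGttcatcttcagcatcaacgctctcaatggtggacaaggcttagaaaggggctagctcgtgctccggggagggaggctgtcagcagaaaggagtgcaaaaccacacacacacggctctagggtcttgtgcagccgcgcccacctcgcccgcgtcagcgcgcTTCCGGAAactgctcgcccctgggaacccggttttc

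The *Gja4* and *Gja5* stretches each hold a single match, a GC box, at 79 to 74 bases before the start in *Gja4* and 17 to 12 bases before it in *Gja5*. A GC box was present in 32.7% of the 32851 promoter stretches of this length. The single match in *Gja1* is an AP-1 motif at 19 to 13 bases before the start, which 6.75% of all stretches hold. *Panx1* has a CCAAT box (33.8% of all stretches) and a pair of overlapping ETS motifs, on opposite strands, between 36 and 29 bases before the start (12.0% of all stretches). None of the 4 stretches holds the TATA box (12.4% of all), the SOX motif (9.42%) or the E-box (6.02%) as spelled here. G and C made up 61.2% of the *Gja4* stretch, 56.4% of *Gja5*, 50% of *Gja1* and 59.6% of *Panx1*, beside a median of 52.4% over all stretches. These matches are a description of the letters, and no binding or chromatin data bear on them.

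Depth, in fragments, was estimated at 38000000 for S38, 39400000 for S44 and 34600000 for S52 from the steps between low FPKM values. All 8 endothelial marker genes, among them *Pecam1* and *Cdh5*, were far above 1 FPKM, with summed levels in S38, S44 and S52 of 4757, 5290 and 4447 FPKM. Library S52 stood apart in genes of other cell types, as given with the results that move with them. Since tables of this kind can hold a 0 where no estimate was made, such genes are called listed at 0.

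Of the 8 genes, 5 had a mean of at least 1 FPKM, the level taken as detection, as did 48.3% of all genes of the table. *Gja4* was the highest of them in every library and *Gjc1* the next. *Gja5* and *Gja1* followed at similar means, then *Panx1*. *Gjb2* and *Gjb1* were near or at 0, and *Panx2* was listed at 0 throughout. The same 5 genes were at 1 FPKM or above in each of the 3 libraries.

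**Figure D1:**
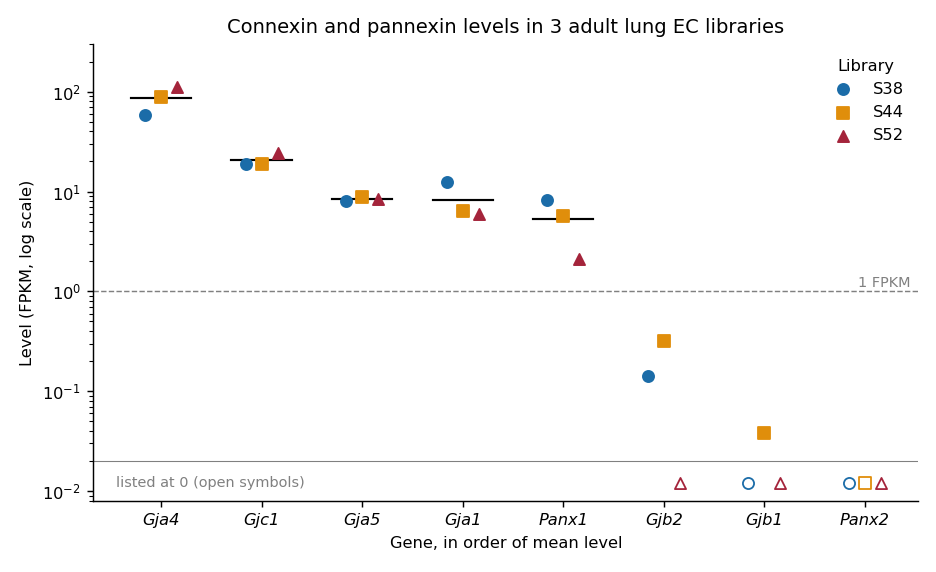
Level of each gene in FPKM on a log scale, 1 symbol per library, with the genes in order of their mean. Black bars give the mean over the 3 libraries for genes above 0 in all of them, the dashed line is 1 FPKM, and open symbols under the grey line are values listed at 0. *Gja4* lies above the other genes in every library, and the 5 genes on the left are above 1 FPKM in every library.

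*Gja4*, which encodes Cx37, an endothelial connexin of arteries and of some capillaries, had 58.1 FPKM in library S38, 88.7 in S44 and 111.8 in S52. The mean was 86.2 ± 27.0 FPKM (SD, n = 3), above that of 95.8% of the genes in the table. S38 was the lowest library and S52 the highest, 1.93-fold apart. Relative to *Cdh5*, the VE-cadherin gene measured in the same library, *Gja4* stood at 6.62% in S38, 9.08% in S44 and 12.3% in S52, so the order of the libraries was the same. About 3365, 5262 and 5744 fragments stood behind these levels in the same order.

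*Gjc1* encodes Cx45, a connexin of low conductance known from vascular smooth muscle, the cardiac conduction system and developing vessels. Its levels in S38, S44 and S52 were 18.8, 19.0 and 24.1 FPKM, a mean of 20.6 ± 3.0 FPKM (SD, n = 3). The 3 libraries were within 1.28-fold of each other. The mural list was measured beside it, because Cx45 is also a connexin of smooth muscle. All 7 mural genes, *Acta2*, *Myh11* and *Pdgfrb* among them, had a mean of at least 1 FPKM, and in S38, S44 and S52 they summed to 218, 131 and 202 FPKM. *Gjc1* was highest in S52 and differed by 1.02-fold between S38 and S44. Of the mural genes, 4 were highest in S38 and 3, *Cspg4*, *Pdgfrb* and *Notch3*, in S52. The part of mural RNA in the *Gjc1* level was not tested, and in bulk samples a change in the number of cells of a type and a change in RNA per cell cannot be told apart.

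*Gja5*, which encodes Cx40, the connexin typical of arterial endothelium, lay close together in S38 (8.03 FPKM), S44 (8.81 FPKM) and S52 (8.42 FPKM). At 8.42 ± 0.389 FPKM (SD, n = 3) it had the smallest spread of the 5 detected genes, 1.1-fold between the highest and the lowest library. *Gja5* was at 0.916%, 0.901% and 0.927% of *Cdh5* in S38, S44 and S52. Genes of arterial ECs were present beside it. Of the 10 arterial markers, 9 had a mean of at least 1 FPKM, with sums of 424, 432 and 478 FPKM in the same order, and *Gkn3* was the one below. Venous markers summed to 428, 460 and 320 FPKM, with 4 of 5 at a mean of 1 FPKM or above. Lymphatic markers, 3 of 4 at that mean, gave sums of 35.6, 36.2 and 23.5 FPKM, with *Ccl21a* listed at 0 in S52. *Flt4* alone was 23.7, 23.8 and 19.8 FPKM. *Prox1* was the one below 1 FPKM (0.132, 0.173 and 0.598 FPKM), and *Prox1* and *Pdpn* were highest in S52.

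*Gja1*, which encodes Cx43, the most widely expressed connexin of the body, reached 12.3 FPKM in S38 but only 6.43 in S44 and 5.94 in S52. The mean was 8.24 ± 3.56 FPKM (SD, n = 3). S38 stood above the other two libraries, which were within 1.08-fold of each other. Fibroblasts, smooth muscle and alveolar epithelium are known to use Cx43 as well. The fibroblast list was also highest in S38, at a sum of 75.7 FPKM there against 57.6 in S44 and 44.2 in S52. Of these sums *Dcn* alone was 47.4, 35.5 and 19.8 FPKM. Of the 5 genes, 4 were highest in S38 and *Pdgfra* in S52, and all 5 had a mean of at least 1 FPKM. The alveolar type 1 list, also with 5 of 5 genes at that level, gave 349, 374 and 275 FPKM in the same order, of which *Hopx* alone was 294, 332 and 201 FPKM. The markers *Ager*, *Rtkn2* and *Akap5* of that list were highest in S52. *Hopx* and *Aqp5* (10.5, 7.61 and 3.08 FPKM) were lowest there, as was *Gja1*, although *Gja1* was within 1.08-fold of its S44 level. The mural list, which holds smooth muscle genes, summed to 218, 131 and 202 FPKM in S38, S44 and S52, lowest in S44. Of its 7 genes, 4 were highest in S38 and 3 in S52. The alveolar type 2 list gave 3797, 3184 and 767 FPKM, with 5 of 6 genes highest in S38 and all 6 lowest in S52. The part of these cells in the *Gja1* level was not tested.

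*Panx1*, the pannexin of most tissues, which opens to release ATP and can be activated by caspase cleavage of its tail, had 8.27 FPKM in library S38, 5.63 in S44 and 2.1 in S52. The mean was 5.33 ± 3.10 FPKM (SD, n = 3). No other detected gene of the set varied as much, with S38 3.94-fold and S44 2.68-fold above S52. The 3 values did not cluster, and about 402 fragments stood behind the lowest of them.

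The remaining genes of the set were at or near 0. *Gjb2* encodes Cx26, a connexin of many epithelia and of the inner ear, and was at 0.141 FPKM in S38 and 0.319 FPKM in S44 and listed at 0 in S52. These values stand for about 12.0 and 28.0 fragments, and at the depth of S52 a count of 0 allows up to 0.0393 FPKM (3 fragments, counting error only). *Gjb1*, the gene of the hepatocyte and Schwann cell connexin Cx32, was at 0.0378 FPKM in S44, about 2.1 fragments, and listed at 0 in S38 and S52. *Panx2*, a pannexin known mainly from the nervous system, was listed at 0 in all 3 libraries. If these were counts of 0, the depths allow up to 0.0244, 0.0237 and 0.0272 FPKM for its longest transcript (3391 bp). For its shorter coding transcript of 2314 bp they allow more. These genes were thus not detectable or at traces, which does not show that no cell of the lung uses them.

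Seen as an order, 3 of the 7 pairs of neighbours were separated, in that the lowest library of the higher gene was above the highest library of the lower gene. *Gja4* was above *Gjc1* (58.1 against 24.1 FPKM at the nearest), *Gjc1* above *Gja5* (18.8 against 8.81 FPKM) and *Panx1* above *Gjb2* (2.1 against 0.319 FPKM). *Gja5* and *Gja1* did not differ beyond their spread, with *Gja5* higher in 2 of 3 libraries and *Gja1* higher in S38. *Gja1* was above *Panx1* in 3 of 3 libraries, although their ranges overlapped. The places of *Gjb2*, *Gjb1* and *Panx2* were not separated. Without S38, 5 of the 7 pairs were separated. The means of *Gja5* and *Gja1* changed places without S44, without S52 and with each library rescaled to the same sum. A two-sided exact permutation test by sign flips of the paired log2(FPKM + 1) differences gave p = 0.25 for 4 of the 7 pairs (Benjamini-Hochberg adjusted p = 0.438), the smallest p that 3 libraries allow, so this design cannot reach 0.05. The mean difference on that log2 scale was 1.97 ± 0.34 (SD, n = 3) between *Gja4* and *Gjc1* and 1.19 ± 0.20 (SD, n = 3) between *Gjc1* and *Gja5*. For *Gja5* and *Gja1* the same exact test gave p = 1.

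The connexin make-up of the cells was then read within each library, a measure that does not depend on how the library was scaled. The table has 20 connexin genes, and their summed level in S38, S44 and S52 was 98.2, 125.8 and 151.1 FPKM. *Gja4* made up 59.1% of that sum in S38, 70.6% in S44 and 74.0% in S52, or 67.9% ± 7.78 (SD, n = 3). *Gjc1* gave 16.7% ± 2.09 (SD, n = 3). *Gja1* had shares of 12.6%, 5.11% and 3.93% in S38, S44 and S52, and *Gja5* 8.18%, 7.0% and 5.57%. Together these 4 genes held 99.0%, 97.8% and 99.4% of the connexin FPKM in S38, S44 and S52.

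**Figure D2:**
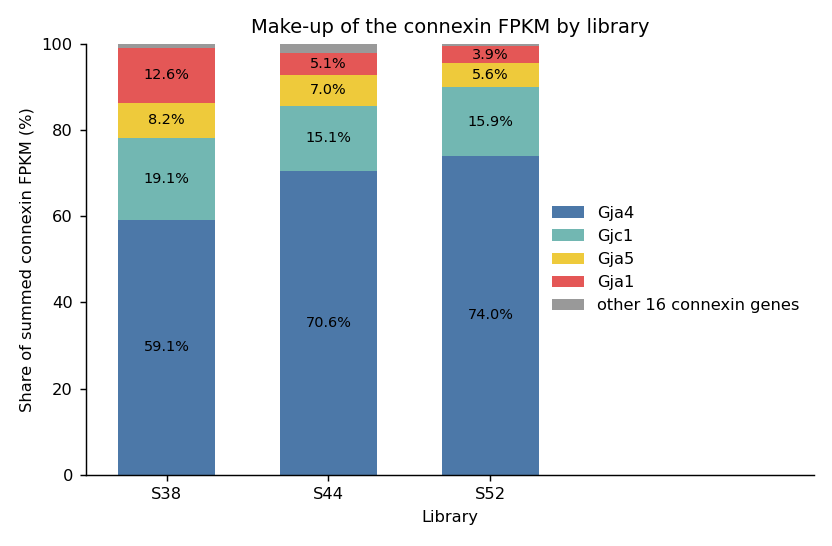
Share of the summed FPKM of 20 connexin genes taken by each gene, in percent, with 1 stacked bar per library and the other 16 connexin genes together in grey. *Gja4* is the largest part of every bar, from 59.1% in S38 to 74.0% in S52, and the *Gja1* part is largest in S38.

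Ratios between pairs of connexins differed in how steady they were. *Gjc1* was 2.34-fold, 2.16-fold and 2.86-fold above *Gja5* in S38, S44 and S52. *Gja4* exceeded *Gja5* by 7.23-fold, 10.1-fold and 13.3-fold in the same order. The ratio of *Gja4* to *Gja1* moved most among the connexin pairs compared, from 4.70 in S38 to 13.8 in S44 and 18.8 in S52, since *Gja4* was lowest and *Gja1* highest in S38.

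The other 15 genes of the families were all below 1 FPKM in every library. Of these 14 connexin genes and *Panx3*, 3, *Gja3* and *Panx3* among them, were listed at 0 in all 3 libraries, 7 were above 0 in 1 library, 4 in 2 libraries and 1 in all 3. The gene above 0 in all 3 was *Gjc3*, a connexin of myelinating glia, with 0.227 FPKM in library S38, 0.495 in S44 and 0.490 in S52. *Gje1* was at 0.120 and 0.642 FPKM in S38 and S44 and listed at 0 in S52, and *Gjd2*, the main connexin of neurons, was at 0.378 FPKM in S52 alone.

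Over the detected genes of the set, 2 of 5, *Gja1* and *Panx1*, were over 2-fold apart between their highest and lowest library, as were 20.1% of the 11770 genes of the table detected at 1 FPKM. The ratio of *Gja1*, 2.08, lies just above the threshold and that of *Gja4*, 1.93, just under it. With median-of-ratios scaling the pair over 2-fold was *Gja4* and *Panx1*, beside 19.6% of all detected genes. The ratio of *Panx1* was larger than that of 93.2% of these genes, and the ratio of *Gja5* larger than that of 6.55%. *Gja1* and *Panx1* were over 2-fold lower in S52 than in S38, as were 11.7% of all genes tested, and *Panx1* over 2-fold lower in S52 than in S44, as were 10.3%. *Gja4* went the other way, over 1.5-fold higher in S52 than in S38, as were 9.46% of the genes. Without S52 none of the 5 genes was over 2-fold apart, beside 5.06% of all detected genes, and without S38 *Panx1* was the only one of the 5, beside 13.5%.

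**Figure D3:**
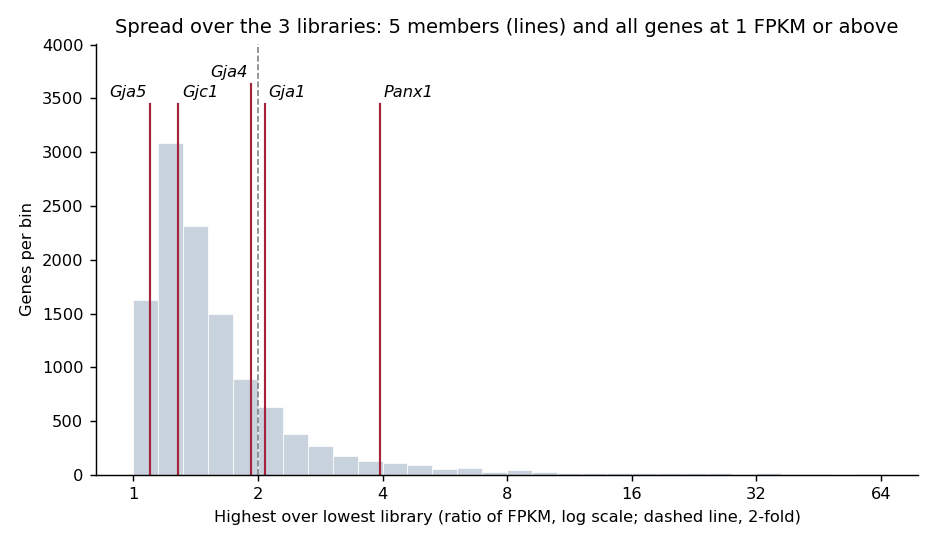
Histogram of the ratio of the highest to the lowest library (log scale) over all detected genes, of which 196 with a library at 0 and 30 with a ratio of 64 or more are not drawn, with red lines for the 5 detected genes of the set and a dashed line at 2-fold. *Gjc1* lies in the fullest bin and *Gja5* to its left, with *Gja4* and *Gja1* on either side of the 2-fold line, and *Panx1* at 3.94 in the sparse right tail.

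The low level of *Panx1* in S52 stood beside low levels of several marker lists of other cell types. The platelet list, with all 5 genes at a mean of at least 1 FPKM and none at 0 in a library, summed to 1709 FPKM in S38 and 1357 in S44 against 40.2 in S52. The leukocyte list, with 4 of 6 genes at that mean, gave 1078, 818 and 186 FPKM, with *Cd3e* listed at 0 in S52. Of these sums *Lyz2* alone was 1047, 780 and 166 FPKM. All 6 genes were lowest in S52, but *Cd68* (17.0, 27.4 and 16.7 FPKM) was nearly as low in S38. Alveolar type 2 genes, 6 of 6 at that mean, gave 3797, 3184 and 767 FPKM. Airway genes, 4 of 5, gave 2767, 2303 and 401 FPKM, with *Krt5* listed at 0 in S52. Mesothelial genes, 1 of 4 at that mean, summed to 2.34 and 6.14 FPKM in S38 and S44, and all 4 were listed at 0 in S52. Each of these sums was lowest in S52, as was *Panx1*. The sums of the fibroblast, alveolar type 1, venous, lymphatic and endothelial lists were also lowest there, but within these lists 1 of 5, 3 of 5, 2 of 5, 2 of 4 and 2 of 8 genes were highest in S52. The mural and arterial sums were not lowest in S52, and the part of these cells in the *Panx1* level was not tested. *Gja4* and *Gjc1* did not share this order, being highest in S52.

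**Figure D4:**
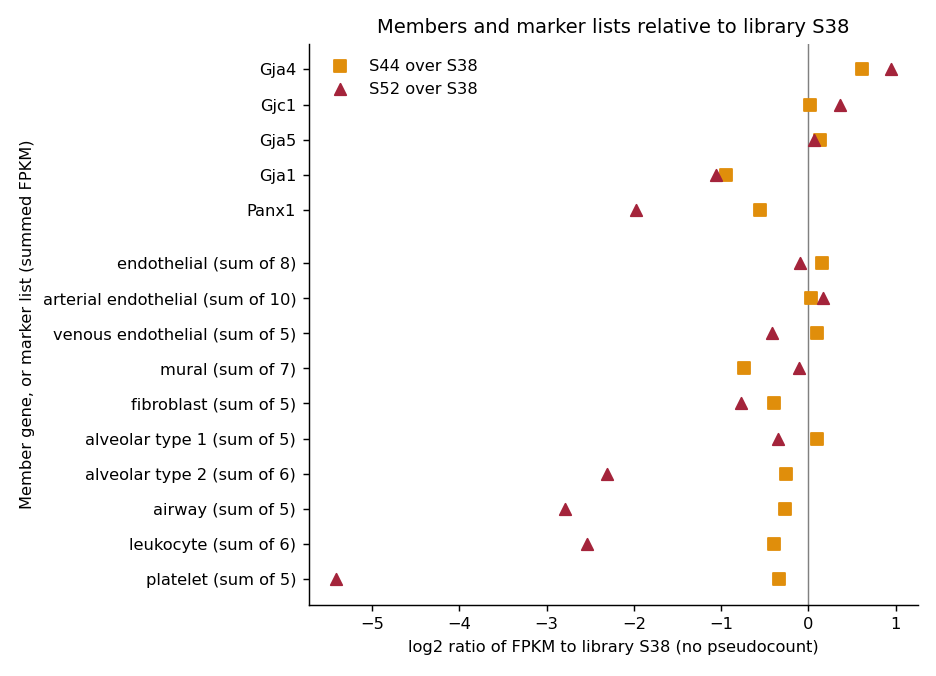
The log2 ratio of FPKM in S44 (squares) and S52 (triangles) to S38, for the 5 detected genes of the set and for the summed FPKM of marker lists, with the number of genes in each list. *Panx1* and the lists of platelet, leukocyte, airway and alveolar type 2 genes lie to the left in S52, whereas *Gja4* lies to the right in both libraries.

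Proteins that bind, traffic or remove connexins were looked up beside them. All 8 genes of the gap junction partner list had a mean of at least 1 FPKM. *Tjp1*, the gene of the ZO-1 scaffold to which connexin tails bind, was at 127 ± 10.5 FPKM (SD, n = 3). *Cav1*, the caveolin gene, was at 1294 ± 37.1 FPKM and *Nedd4*, a ubiquitin ligase that targets Cx43, at 148 ± 22.5 FPKM (SD, n = 3 for each). *Sgsm3*, a further Cx43 binding protein, was at 7.39 ± 0.824 FPKM and *Nov*, a matricellular connexin partner, at 3.87 ± 0.904 FPKM (SD, n = 3 for each). Of the 8 genes of the list, 2, *Cnst* and *Dbn1*, were over 2-fold apart between libraries, as were 20.1% of all detected genes. *Cnst*, which encodes consortin, a trans-Golgi protein that helps connexins to the cell surface, stood at 28.0 FPKM in S38, 20.5 in S44 and 7.04 in S52. *Dbn1*, the drebrin gene, was at 2.08, 2.28 and 4.67 FPKM. *Cnst* thus had its lowest value in S52, as *Panx1* did, and *Dbn1* its highest.

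ATP released through pannexin channels acts on P2 receptors and is broken down by ectonucleotidases, and all 8 genes of the pannexin and ATP list had a mean of at least 1 FPKM. *Entpd1*, which encodes CD39, the enzyme that degrades ATP and ADP, was the highest at 59.2 ± 8.05 FPKM (SD, n = 3), and *Nt5e*, which encodes the adenosine-forming enzyme CD73, was at 1.91 ± 0.213 FPKM (SD, n = 3). The ATP-gated channels *P2rx4* and *P2rx7* were at 35.3 ± 4.60 FPKM and 16.5 ± 4.93 FPKM (SD, n = 3 for each). The receptor *P2ry2* was at 6.53 ± 1.42 FPKM (SD, n = 3). *P2ry1*, an ADP receptor of platelets and ECs, had 4.03, 2.52 and 0.924 FPKM in S38, S44 and S52. It was the only 1 of the 8 genes of this list over 2-fold apart, beside 20.1% of all detected genes.

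Other junction genes of the endothelium were set beside the connexins. The 8 genes *Cdh5*, *Cldn5*, *Pecam1*, *Esam*, *F11r*, *Jam2*, *Jam3* and *Ocln* summed to 4271, 4750 and 3826 FPKM in S38, S44 and S52, and the connexin sum was 2.30%, 2.65% and 3.95% of it. *Cldn5*, *Pecam1*, *Cdh5* and *Esam* made up most of that sum, at means of 1416, 1168, 921 and 594 FPKM. Of the other genes, *F11r*, at 104 FPKM, was above *Gja4* in S38 and S44 and below it in S52, and *Jam2* (47.9 FPKM), *Ocln* (24.8 FPKM) and *Jam3* (6.84 FPKM) had means below that of *Gja4*. None of these 8 genes was over 2-fold apart between libraries, beside 20.1% of all detected genes.

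Genes with values most like those of *Gjc1* and *Gja4*, the members with a mean of at least 10 FPKM, were sought by the distance in log2(FPKM + 1) over the 3 libraries. The nearest to *Gjc1* were *Ddx26b*, at a distance of 0.045, and *Med15*, at 0.048, and 83 of 11769 genes lay within 0.2. The nearest to *Gja4* were *2410006H16Rik*, at 0.29, and *Nedd9*, at 0.30, and no gene lay within 0.2. With 3 libraries such nearness describes level and spread only.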

How the data were processed

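Endothelial cells (ECs) of adult lung were sorted and sequenced in 3 libraries, S38, S44 and S52, which the sample labels put in 1 group. The deposited values are FPKM, 1 per gene symbol and library, which the authors made on mm10. The submitters' processing notes name Trimmomatic 0.36, TopHat2 2.1.0 and Cufflinks 2.2.1, whereas the methods text describes alignment with STAR and counting with HTSeq. The gene annotation is not given in the sources used here. Values were read as deposited (0 per-sample columns left out), without rescaling, and no count model was fitted because FPKM values are not counts. Means and SDs are over libraries on the FPKM scale, and the test of neighbouring genes used log2(FPKM + 1). Depth was estimated by searching for the number of fragments that makes low FPKM values whole numbers of fragments, over 7077 genes that have 1 basic transcript in GENCODE M21, of length 800 to 4000 bp, a method settled on with the values in view. With the fitted step, 78.4% of 231 low values in S38, 79.3% of 305 in S44 and 76.7% of 163 in S52 lay within 0.15 of a whole number. On simulated counts for those 7077 genes this recovered 3 known depths. The depths of S38, S44 and S52 themselves were not tested against known fragment counts, so they and the fragment numbers given for genes remain estimates. Gene models are GENCODE M21 on GRCm38. Promoter sequences are those of RefSeq on GRCm38.p6, where 6 of the 8 genes had an entry.

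The 8 genes, the lists beside them and the tests were chosen with earlier results of these data known. Named besides the 8 genes are the other connexin and pannexin genes with a mean of 0.1 FPKM or more, all genes of the gap junction partner, ATP and endothelial junction lists, and, for each of the 8 genes averaging 10 FPKM or more, the 2 genes at the smallest Euclidean distance in log2(FPKM + 1). Some of these genes are left unreported. The cell type lists are endothelial, arterial, venous and lymphatic endothelial, airway, alveolar type 1 and 2, platelet, leukocyte, mural, fibroblast and mesothelial. The alternatives were 2 scalings, leaving out each library, other thresholds for level and fold, pseudocounts and the median in place of the mean. Analyses used Python 3.11.15, pandas 2.3.3, numpy 2.4.6 and scipy 1.17.1. Nothing says that the libraries came from separate mice, so the spread between them may be technical.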

Additional observations from a re-analysis of the deposited data

How the results depend on the processing

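The number of detected genes stayed at 5 under both scalings, without each library, with thresholds of 0.5 and 3 FPKM, with 1 FPKM required in every library and with the median, was 6 at 0.1 FPKM, and was 2 at 10 FPKM. The share of all genes is given for the main rule only (48.3%). The counts at the other settings thus describe the set alone and do not show whether it differs from the table. The *Gja4* share of connexin FPKM stayed within its SD, from 64.8% without S52 to 72.3% without S38. Of the 7 pairs of neighbouring genes, 3 were separated with either scaling and with the median, and 3 to 5 when a library was left out (5 without S38, 4 without S52). The smallest exact permutation p for neighbours was 0.25 with a pseudocount of 0.1 and 0.5 with 2 libraries, the smallest each number of libraries allows. The count of genes over 2-fold apart moved most. It was 1 with a threshold of 3-fold (9.36% of all genes), 3 with 1.5-fold (41.7%), 0 with a minimum mean of 10 FPKM (8.74%), 1 with FPKM + 1 in the ratio (12.7%), and 0 to 2 when a library was left out (0 without S52, 1 without S38 and 2 without S44, beside 5.06%, 13.5% and 14.8%), since fewer libraries give smaller ranges. With each library rescaled to the same sum it was 2, beside 25.8% of all genes. That scaling shifted the median gene by -0.19 in S38, -0.61 in S44 and -0.45 in S52 on the log2(FPKM + 1) scale. Under it the log2 ratio of S52 to S38 for *Gja5* turned from 0.069 to -0.23, because a single factor per library moves the ratio of every gene by the same amount. The direction of that ratio held for *Gja4*, *Gjc1*, *Gja1* and *Panx1* under both scalings. For *Gjc1*, however, it fell from 0.361 to 0.062 with each library rescaled to the same sum, so S52 and S38 were then nearly equal. That scaling also moved the mean of *Gjc1* from 20.6 to 15.0 and that of *Gja5* from 8.42 to 6.13, beyond their SDs. No paired analysis was possible because the 3 libraries form a single group, with no second group to pair them with. The sign-flip test paired genes within libraries. Depth limits what can be said of *Gjb1*, *Gjb2* and *Panx2*, whose values rest on few fragments or none.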
